A study of Mus musculus with 2 samples.

Results

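Brown adipose tissue (BAT) burns fuel to make heat, and a set of genes for lipid handling, thyroid hormone activation and mitochondrial oxidation is known for high expression there. The 7 genes described here are Cidea, Dio2, Elovl3, Cpt1b, Pdk4, Cox7a1 and Cox8b. They were chosen by name, with earlier results of these data known. Every deposited PPARγ region whose midpoint lay within 100 kb of a window centre, taken as the gene start, was used. Regions came from the list specific to BAT and from the list specific to epididymal white adipose tissue (eWAT). This gave 18 regions, 11 from BAT and 7 from eWAT, of 8268 regions in both lists (3557 BAT and 4711 eWAT).

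PPARγ is a nuclear receptor that pairs with RXR on DNA and drives the genes of fat cells, in white and in brown fat. A bound region can lie at the promoter of the gene it acts on or many kilobases away, so a window around a gene holds candidates only, and the neighbouring genes in it are candidates too. Its binding was mapped by ChIP-seq, in which DNA cross-linked to the receptor is pulled down with an antibody and sequenced, in BAT and eWAT of 129SV males aged 8 to 10 weeks, on normal chow and under a 12 h light and 12 h dark cycle. Tissue was taken at zeitgeber time 10 and fixed with 1% formaldehyde. No genotype, drug or cold treatment is named for either group. The ChIP DNA of 4 mice was pooled into 1 library per tissue, so no spread between animals can be given and no difference below has a test. The labels give no difference between the 2 groups other than the tissue. The tissues hold other cells beside adipocytes, and expression of the 7 genes was not measured here.

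Most of the genes had PPARγ regions specific to brown fat close by, but not all of them, and most also had a region specific to white fat further away. A BAT-specific region lay in the windows of 6 of the 7 genes, Cox8b being the exception. Over all 200 kb tiles of the genome, stretches without genes included, 17.4% held a BAT-specific region. An eWAT-specific region lay in the windows of 5 of the 7 genes, against 23.6% of tiles. Both kinds were found at 5 genes, against 6.75% of tiles. The BAT list had more regions than the eWAT list at 2 genes, Dio2 and Cpt1b, against 12.5% of tiles. The reverse held at 1 gene, Cox7a1 (18.6% of tiles), and the numbers were equal at Cidea, Elovl3 and Pdk4. The mean was 1.57 BAT and 1.00 eWAT regions per window, where a tile held a mean of 0.270 and 0.357.

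BAT regions made up 61.1% of the 18 regions (exact Clopper-Pearson 95% interval 35.7 to 82.7%). The share over both whole lists was 43.0%, which lies inside that interval. The interval covers counting error only, and regions of one window are not independent. The result depended on the window. With 50 kb each side the BAT share was 80.0% of 10 regions (interval 44.4 to 97.5%). With 25 kb it was 87.5% of 8 regions (interval 47.3 to 99.7%). Both of these intervals lie above 43.0%, but they count neighbouring regions at Cpt1b as independent and are no test. With 200 kb the share was 53.3% of 30 regions (interval 34.3 to 71.7%), and 43.0% lies inside that interval.

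**Figure D1:**
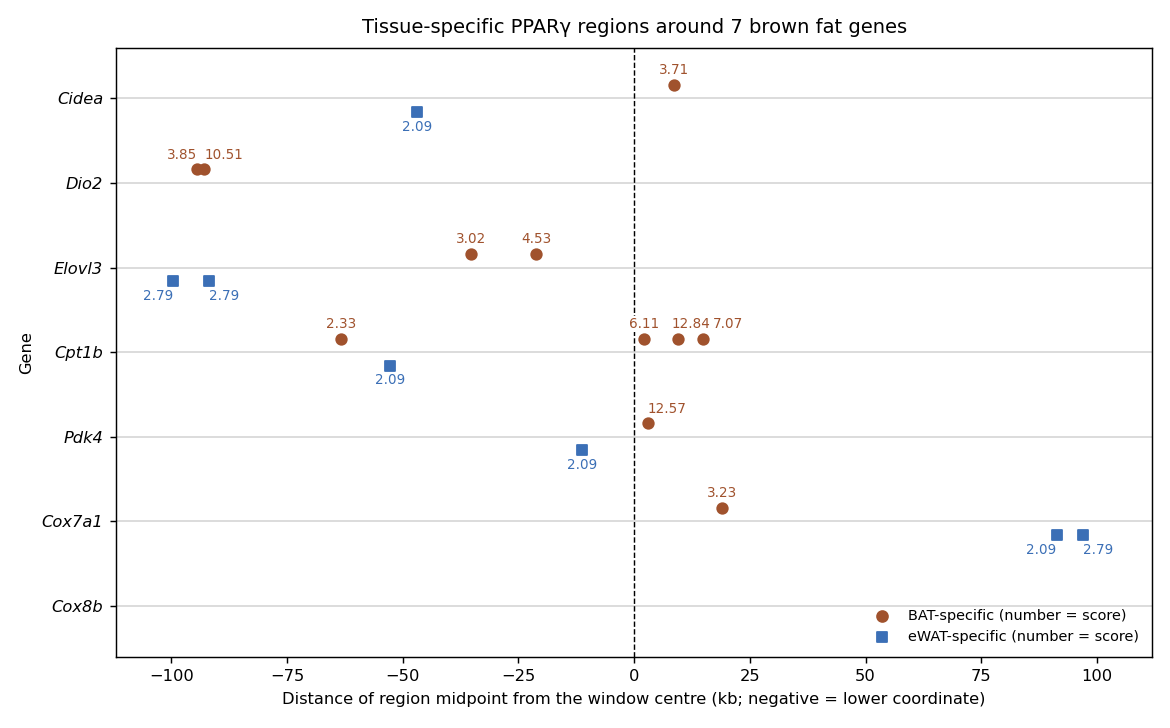
Positions of the 18 tissue-specific PPARγ regions, 1 gene per line. The x axis is the distance in kb from the window centre (taken as the gene start to the nearest kb, negative for lower coordinates). Brown circles are BAT-specific and blue squares eWAT-specific regions, and the number beside each is its deposited score. Within 25 kb of the centre there are 7 BAT regions at 5 genes and 1 eWAT region, at Pdk4.

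Among these regions the BAT ones mostly lay nearer to the window centres than the eWAT ones. Regions of one window are not independent, and distances to genes over the whole lists were not worked out. Within 25 kb of the window centre were 7 BAT regions, at Cidea, Elovl3, Cpt1b, Pdk4 and Cox7a1, and 1 eWAT region, at Pdk4. That is 5 of 7 genes for BAT, where 5.50% of all 50 kb tiles held a BAT region. For eWAT it is 1 of 7, where 7.49% held an eWAT region. Stretches without genes are included in these tiles too. Between 25 and 50 kb there was 1 region of each kind. Between 50 and 100 kb there were 3 BAT and 5 eWAT regions. The median distance was 19.0 kb for the 11 BAT regions (range 2.1 to 94.5 kb) and 91.3 kb for the 7 eWAT regions (range 11.2 to 99.7 kb). At 6 of the 7 genes the nearest region of either list was a BAT region. Cox8b was again the exception. This count was not made over all genes, so it has no share to set beside it. Just inside the limit of 100 kb lay both BAT regions of Dio2 and the eWAT regions of Elovl3 and Cox7a1, and just outside it an eWAT region at Cox7a1 (103.2 kb) and a BAT region at Elovl3 (116.6 kb).

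**Figure D2:**
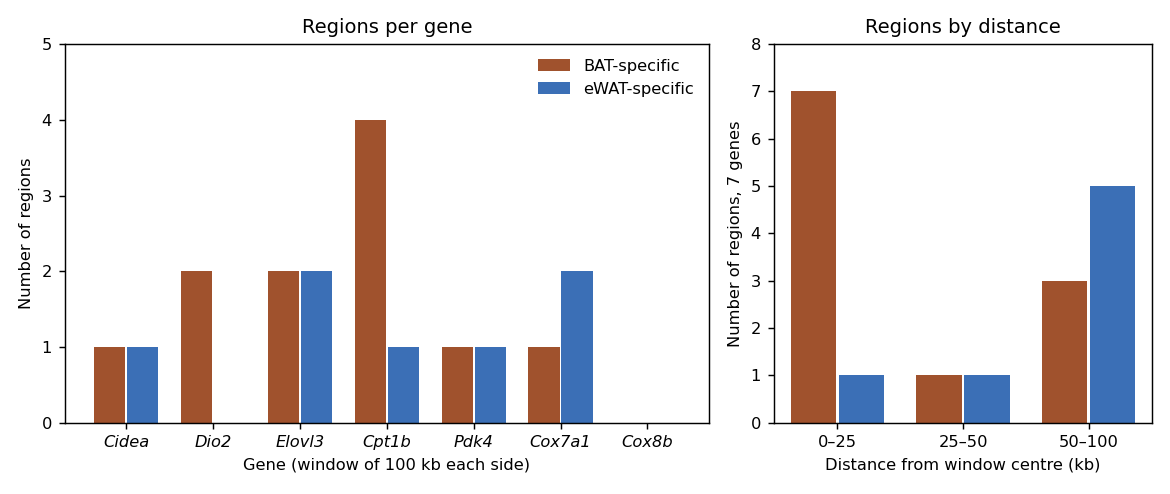
Numbers of tissue-specific PPARγ regions. The left panel has the count per gene within 100 kb each side, and the right panel has the count over all 7 genes by distance from the window centre in kb; brown bars are BAT-specific and blue bars eWAT-specific regions, and Cox8b and the eWAT side of Dio2 are at 0. BAT regions number 7 in the nearest class, and eWAT regions number 5 in the farthest.

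The score deposited with each region has no stated unit and can be read only within its own list. Scores rise in even steps, of 0.0687 for BAT and 0.348 for eWAT, as they would if 1 step were 1 sequenced tag. On that assumption the steps behind a score give its precision, and the Poisson intervals on steps cover counting error only. The lowest score was 26 steps in the BAT list and 4 steps in the eWAT list. Counts of BAT against eWAT regions thus compare lists with unlike floors in steps. The median score of the 11 BAT regions was 4.53 (66 steps, range 2.33 to 12.84), higher than 70.3% of the BAT list. The interval of this median from the ranked scores, of at least 95%, was 3.02 to 12.57 and includes the list median of 3.57. It takes the regions as independent, which regions of one window are not. Of the 11, 8 were at or above the list median and 3 had a score above 10, against 2.31% of the list. Those 3 lay at 3 different genes, Cpt1b, Pdk4 and Dio2. No eWAT region scored above the middle of its list. Scores were 2.09 (6 steps) for 4 of them and 2.79 (8 steps) for the other 3, and the median of the eWAT list was 2.79. Read as tags, 6 steps has a 95% Poisson interval of 2.20 to 13.1 tags.

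**Figure D3:**
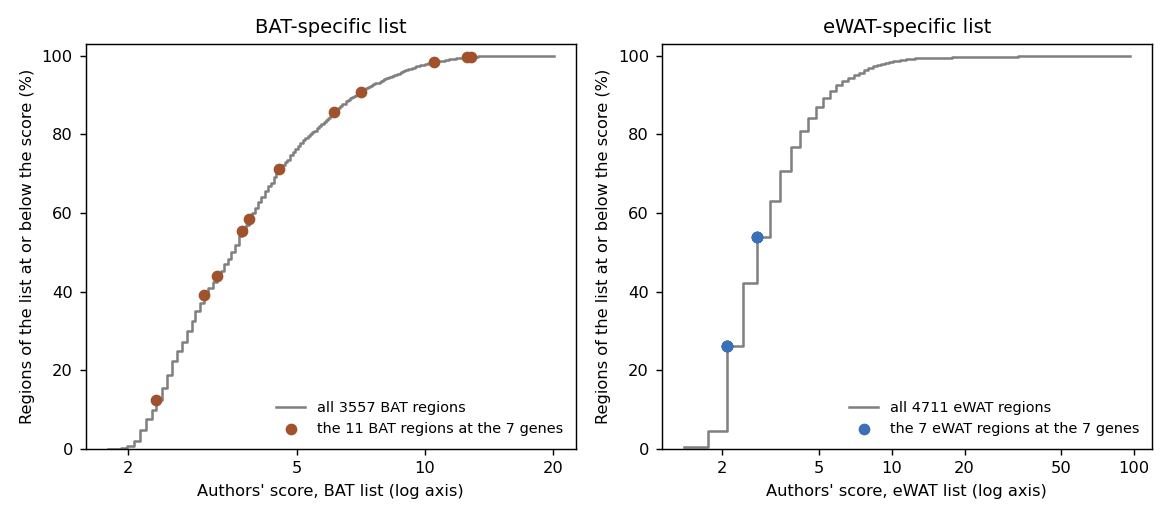
Scores of the member regions within their lists. Each panel plots the deposited score (log axis) against the percentage of that list at or below it, with the grey line for all regions and the points for the 11 BAT (left) or 7 eWAT (right) regions at the 7 genes; the eWAT points overlap at 2 values, 2.09 and 2.79. The 3 highest BAT points are the regions at Dio2, Pdk4 and Cpt1b, with scores of 10.51, 12.57 and 12.84.

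Positions are given in mm9. Distances run from the centre of each gene's window, taken as the gene start to the nearest 1 kb. A lower or higher side means lower or higher coordinates. No gene annotation of mm9 was used here, so which end of a gene on the minus strand a centre marks was not checked, and exon, intron or UTR is not stated for any region.

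Fatty acid oxidation was represented by Cpt1b and Pdk4, and these had the 2 highest-scoring of the 11 BAT regions. Cpt1b encodes the muscle and brown fat form of carnitine palmitoyltransferase 1, which commits long-chain fatty acids to entry into mitochondria. Its window held 4 BAT regions, and 0.829% of 200 kb tiles held 4 or more. The strongest lay 9.5 kb to the higher side (chr15:89256424-89256623) and scored 12.84, or 187 steps (95% Poisson interval 161 to 216). It ranked 13 of the 3557 BAT regions. On either side of it were a region with a score of 7.07 (chr15:89261829-89262028, 14.9 kb from the centre) and one with a score of 6.11 (chr15:89249003-89249202, 2.1 kb from the centre). These 2 scored higher than 90.6% and 85.2% of the BAT list.

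The 3 regions around Cpt1b formed a tight group, with gaps of 7.42 and 5.41 kb between midpoints. Cpt1b spans 9.46 kb in the GRCm38 annotation. It is known to be transcribed toward lower coordinates, from the side of its neighbour Chkb, which encodes a choline kinase. If the centre marks the lower end of the gene, the strongest region lies at the other end, where transcription starts. If it marks the transcription start, all 3 lie before the gene. The fourth BAT region was weak and distant, 63.4 kb to the lower side (chr15:89183454-89183653), with a score of 2.33 that exceeded only 9.8% of the list. The 1 eWAT region at Cpt1b scored 2.09 and lay 52.8 kb to the lower side (chr15:89194067-89194266). It was 10.6 kb from that weak BAT region and 54.9 kb from the nearest of the 3 grouped ones.

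Pdk4 encodes pyruvate dehydrogenase kinase 4, which turns off pyruvate dehydrogenase and so spares glucose when fatty acids are burned. A single BAT region lay 3.0 kb to the higher side of the window centre (chr6:5448871-5449070). It scored 12.57, or 183 steps (95% Poisson interval 157 to 212), and ranked 16 of 3557, close behind the highest region at Cpt1b. Unlike at Cpt1b, it stood alone, with the next BAT region 193.84 kb away. The Pdk4 eWAT region (chr6:5434690-5434889) scored 2.09, or 6 steps, and lay 11.2 kb to the lower side, 14.2 kb from the BAT region. Pdk4 was thus the gene with a brown and a white region both within 25 kb. Pdk4 is on the minus strand in the RefSeq promoter table, so with the centre at the transcription start the BAT region lies upstream and the eWAT region on the side of the gene body.

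Dio2 encodes type 2 deiodinase, which makes active thyroid hormone inside the brown fat cell and is known to be induced by cold through cyclic AMP. Its window held 2 BAT regions and 0 eWAT regions. Both BAT regions lay near the lower edge, 92.9 and 94.5 kb from the centre, and 1.56 kb from each other. The nearer one (chr12:91883958-91884157) scored 10.51, or 153 steps (95% Poisson interval 130 to 179), and ranked 57 of 3557. Its companion (chr12:91882398-91882597) scored 3.85, higher than 56.8% of the list. No eWAT region lay nearer to Dio2 than 750.8 kb. The next coding genes on the lower side of Dio2 in GRCm38 begin with Nrxn3, a neurexin gene, and a distant pair of regions cannot be assigned to either gene from these lists.

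The Dio2 promoter is the place where a sequence match was found. RefSeq promoters (250 bases before to 50 after the start, GRCm38.p6) were held for 4 of the 7 genes, Dio2, Pdk4, Cox7a1 and Cox8b. No tissue-specific region lay within 2 kb of any of the 7 centres, so whole promoters are not printed. The motifs searched on both strands were the direct repeat bound by PPARγ with RXR (DR1, 2 copies of AGGTCA with 1 base between them), its half-site (AGGTCA), the site of the estrogen-related receptors (TCAAGGTCA), the site of EBF proteins (TCCC and GGGA with 2 bases between them), the cyclic AMP response element (TGACGTCA) and the GC box (GGGCGG). The half-site is contained in the direct repeat and in the estrogen-related receptor site. The cyclic AMP response element was found in 1 of the 4 promoters, that of Dio2, starting 95 bases before the gene start, and in 1.79% of the 32851 promoters in the table. It is shown with its flanks as the single match among the members, from the minus strand at chr12:90739116-90739143 of GRCm38.p6, a build other than that of the regions, with the element in capitals.
Dio2 cyclic AMP response element: tctttctcaaTGACGTCAagatctttag
The other 5 motifs were in 0 of the 4 promoters. The direct repeat was in 0.0396% of all promoters, the half-site in 16.3%, the estrogen-related receptor site in 0.423%, the EBF site in 0.904% and the GC box in 35.7%. A missing match says only that these letters are not in these windows.

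Cidea encodes a lipid droplet protein that is abundant in brown adipocytes. Its window held 1 BAT region, 8.6 kb to the higher side (chr18:67511475-67511674), with a score of 3.71, or 54 steps (95% Poisson interval 40.6 to 70.5). This was near the middle of the BAT list, above 54.1% of it. The 1 eWAT region scored 2.09 and lay 47.0 kb to the lower side (chr18:67455901-67456100). The BAT region of Cidea had no BAT neighbour within 435.33 kb.

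Elovl3 encodes an enzyme that lengthens very long chain fatty acids and is induced in brown fat by cold. Both BAT regions of its window lay to the lower side, 21.2 kb (chr19:46184747-46184946) and 35.3 kb (chr19:46170557-46170756) from the centre. Their scores were 4.53 and 3.02, above 70.3% and 37.0% of the BAT list. The 2 eWAT regions lay on the same side but at the edge of the window, 91.9 kb (chr19:46114019-46114218) and 99.7 kb (chr19:46106240-46106439) away, each with a score of 2.79. All 4 lay toward the side where Nolc1 and Pprc1 are the next coding genes in GRCm38. Pprc1 encodes a coactivator related to PGC-1. Beyond the window edge on this side was a BAT region with a score of 6.25, at 116.6 kb from the centre, higher than both BAT scores inside.

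Cox7a1 and Cox8b encode the heart and muscle type subunits of cytochrome c oxidase, the last complex of the respiratory chain, and both subunits are known as markers of brown fat. Cox7a1 had 1 BAT region, 19.0 kb to the higher side (chr7:30987893-30988092), with a score of 3.23, or 47 steps (95% Poisson interval 34.5 to 62.5), above 42.3% of the list. Its 2 eWAT regions lay 91.3 kb (chr7:31060229-31060428, score 2.09) and 97.0 kb (chr7:31065896-31066095, score 2.79) to the same side. A stronger eWAT region, with a score of 6.62, fell just outside, at 103.2 kb. Cox7a1 was thus the gene where eWAT regions outnumbered BAT regions, although the BAT region was the nearer one.

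Cox8b had no region of either list in its window, as in 65.7% of 200 kb tiles. The nearest eWAT region lay 129.6 kb away on the lower side (chr7:147954325-147954524, score 3.14) and the nearest BAT region 293.1 kb away on the higher side (chr7:148376956-148377155, score 2.61). The lists hold regions specific to one tissue, so sites bound in both tissues are not analysed here and an empty window does not show that PPARγ was absent from Cox8b.

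Several member regions had company of their own list. A region of the same list within 10 kb was found for 5 of the 11 BAT regions, the 3 grouped at Cpt1b and the 2 at Dio2, against 21.2% of the BAT list. It was found for 4 of the 7 eWAT regions, the 2 at Elovl3 and the 2 at Cox7a1, against 17.7% of the eWAT list. These neighbours belong to 4 genes, with a gap of 1.56 kb at Dio2, 5.67 kb at Cox7a1 and 7.78 kb at Elovl3. Among the member regions the closest approach of the 2 lists was the 10.6 kb at Cpt1b. The median distance from a BAT member region to the nearest eWAT region was 62.4 kb, against 149.3 kb for the BAT list. From an eWAT member region to the nearest BAT region it was 24.7 kb, against 235.1 kb for the eWAT list. All 5 windows with an eWAT region also held a BAT region, and regions of one window are not independent. The whole lists also include regions far from any gene of this kind, so these contrasts are no test.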

How the data were processed

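The members and lists were chosen with earlier results of these data known. The authors deposited 1 headerless list per tissue with position, name, score and strand, and all regions span 200 bp. Bowtie, HOMER and the builds mm8 and mm9 are named in the submitters' processing notes, with no version or role. The deposited score has no stated unit. Not given in the sources used here were the threshold, the use of input and the rule for tissue-specific regions. Regions on chromosome 7 reach 152442366, past the end of that chromosome in mm8 and past every GRCm38 gene there (46 regions), so positions were read as mm9.

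Regions with a midpoint in the 7 windows were counted per gene and list, all 7 genes being named. The background is 13149 tiles of 200 kb (chromosomes 1 to 19 and X). The score step was fitted by least squares; 99.9% of BAT and 100.0% of eWAT scores were whole multiples within 0.005. Library totals are unknown. Step fit and counting were tested on simulated data. Further pathway genes and the sequence of the regions were not analysed here, since no gene positions or genome of mm9 were used. The RefSeq gene table (GRCm38.p6) matched 7 of 7 genes and gave names, lengths and neighbours only. Python 3.11.15, pandas 2.3.3 and SciPy 1.17.1 were used.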

Additional observations from a re-analysis of the deposited data

How the results depend on the processing

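The BAT share of the member regions, 61.1%, was 87.5% (7 of 8 regions) with 25 kb each side and 100% (11 of 11) with at least 10 score steps, a floor that no BAT region could fail and that removed all 7 eWAT regions, as it removed 63.1% of the whole eWAT list. Under the same floor the BAT share of the whole lists was 67.2%. It was 80.0% with 50 kb, 53.3% with 200 kb and 72.7% with scores at or above each list's median, and ran from 53.8% (without Cpt1b) to 66.7% (without Cox7a1) when 1 gene was left out. Counting regions within 2 kb once, chosen after seeing the data, gave 58.8%. The 2 genes with more BAT than eWAT regions became 4 with 25 kb, 4 with 200 kb, 4 with scores at or above each list's median and 6 with at least 10 steps. Genes with any BAT region numbered 5 or 6 in all 7 alternatives. The median BAT score, 4.53, ran from 3.85 to 6.11 when 1 gene was left out, and was 6.11, 5.32 and 4.19 with 25, 50 and 200 kb. Over the 7 genes, the median distance from the window centre to the nearest eWAT region, inside the window or not, was 91.3 kb. It became 715.7 kb with at least 10 steps, because fewer regions were left. With a single library for BAT and for eWAT, none could be left out. No paired analysis was possible because each group is a single library. The eWAT regions at 6 or 8 steps limit the precision of the eWAT side.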
